A study of Mus musculus with 7 samples.

Results

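The genes described here are 9 parts of the machinery through which a cell senses interferon and switches on its response: the receptor subunits Ifnar1, Ifnar2 and Ifngr1, the signal transducer Stat2, and the interferon regulatory factors Irf1, Irf2, Irf3, Irf7 and Irf9. They were chosen by name, as a set of receptors, STAT and IRF factors, and every probe that the array annotation assigns to them was taken: 18 probes of the 25697 on the array, for 9 of 16593 annotated genes. The cells were megakaryocyte-erythroid progenitors, the bone marrow cells that precede platelets and red blood cells, sorted from female C57BL/6 mice as lineage-low, c-Kit+, Sca-1-, CD34-low and CD16/32-low. In the double knockout group (3 arrays) the mice lacked Ssb1 (Nabp2) and Ssb2 (Nabp1), which encode proteins that bind single-stranded DNA, and the control group (4 arrays) was labelled wild type. The labels give no age, treatment or method of deletion, and they do not say whether each array was a separate mouse, so p-values measure the spread between these arrays, which may in part be technical.

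Type I interferons bind a receptor made of Ifnar1 and Ifnar2, and interferon gamma binds one that contains Ifngr1. The kinases bound to the type I receptor activate Stat2, which joins Irf9 in the complex ISGF3, and ISGF3 binds the interferon stimulated response element (ISRE) in front of antiviral genes. Irf3 is present before any stimulus and is switched on by phosphorylation, while Irf7 is itself induced by interferon and drives the interferon alpha genes. Irf1 is induced through the gamma activated site (GAS) and activates its targets, and Irf2 was first described as its antagonist.

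Signals are given as background-corrected, quantile-normalized log2 values, and a gene was tested where at least 1 of its probes was detected at p under 0.05 on 3 or more arrays. All adjusted p-values are Benjamini-Hochberg values from a limma fit over all 7547 genes tested, with a threshold of 0.05. In this fit 27.2% of genes were called, 14.4% higher and 12.8% lower in the double knockout, and a count of members is to be read against these shares. By its brighter probe Nabp2 was at 7.09 ± 0.0368 (SD, n = 3) in the double knockout and 9.13 ± 0.360 (SD, n = 4) in controls. A dimmer Nabp2 probe was at 5.20 ± 0.113 (SD, n = 3) against 6.15 ± 0.347 (SD, n = 4). Both Nabp2 probes were detected on all 7 arrays, and Nabp1 has 1 probe, which no array detected. All 9 progenitor markers on the array (Gata1, Klf1, Epor, Zfpm1, Tal1, Gfi1b, Itga2b, Tfrc and Nfe2) were tested and detected, with a summed linear signal of 35940 to 37460 on knockout and 30433 to 38204 on control arrays. Of these, Itga2b, the integrin chain of megakaryocytes, rose by 1.99 (adjusted p = 0.00133) and the transcription factor Nfe2 by 0.61 (adjusted p = 0.00461), and none fell. The erythroid factors Gata1 and Klf1 differed by -0.48 and -0.32 with no overlap between groups, and did not pass (adjusted p = 0.0524 and 0.0522). The knockout arrays were brighter, with a mean signal of 651 to 670 against 443 to 615 on control arrays (exact two-sided permutation p = 0.0571, where the smallest the design allows is 0.0286). Scaling each array to the median of all probes, which holds the background equal, moved the median gene to 0.52 on the log2 scale, and scaling to the median of detected probes moved it to -0.14, against 0.01 after quantile normalization. The share of called genes that were higher was 52.9% after quantile normalization, 97.0% under the first of these scalings and 30.5% under the second, so rises and falls are relative to the typical gene.

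Of the 9 members, 8 were tested. Irf7, Irf1, Stat2, Irf9 and Irf2 rose in the double knockout, none fell, and Ifnar2, Ifngr1 and Irf3 did not pass the threshold. Thus 5 of 8 were called higher, where 14.4% of all genes were, and the groups did not overlap for the same 5 members, where this was so for 38.5% of all genes. Without knockout array 1 or knockout array 3, 3 members (Irf7, Irf1 and Stat2) were called, and with array brightness as a covariate 1 was (Irf7). Stat2 would have met the detection filter through its knockout arrays alone, so the count is a description and not support.

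**Figure D1:**
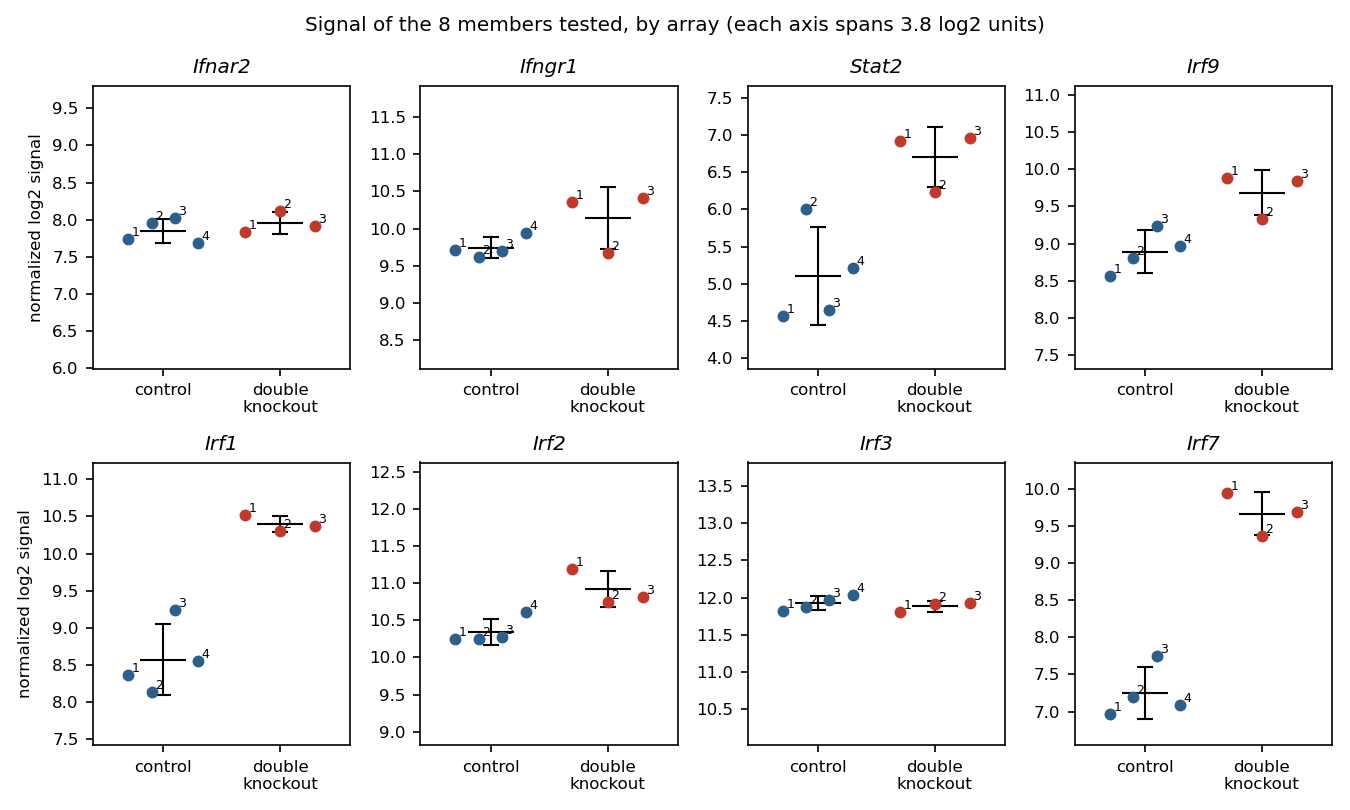
Normalized log2 signal of the 8 members tested, 1 point per array (number: replicate), with mean and SD as bar and whiskers, controls in blue (n = 4) and double knockout in red (n = 3). Irf7 lies at 6.96 to 7.75 in controls and 9.36 to 9.94 in the double knockout, while the points of Irf3 overlap between 11.80 and 12.03.

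None of the receptor subunits was called. Ifnar1 has 1 probe on the array, and it was not detected on any of the 7 arrays, where its log2 value lay between 4.37 and 4.49 and its detection p between 0.576 and 0.927. No level or change of Ifnar1 can therefore be given, and at this signal a low level was not detectable.

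Ifnar2, the subunit that holds most of the signalling tail of the type I receptor, read 7.84, 8.11 and 7.92 on knockout arrays 1 to 3 and 7.75, 7.95, 8.02 and 7.69 on control arrays 1 to 4. The groups overlapped, and the change was 0.10 (SE 0.134, 95% interval -0.20 to 0.40, adjusted p = 0.591). A dimmer Ifnar2 probe differed by 0.26 (adjusted p over all kept probes = 0.178), and another was not detected on any array. Under scaling to the median of all probes Ifnar2 was called higher at 0.78, which is 0.26 above the median gene of that scaling.

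Ifngr1, the ligand-binding chain of the interferon gamma receptor, read 10.36, 9.67 and 10.42 on knockout arrays and 9.71, 9.62, 9.70 and 9.94 on control arrays. Knockout arrays 1 and 3 lay above every control, and knockout array 2 lay among the controls. The difference of 0.40 did not pass (SE 0.188, 95% interval -0.02 to 0.83, adjusted p = 0.138), and it was called at 0.64 without knockout array 2 (adjusted p = 0.0185). It was also called under scaling to the median of all probes, at 1.02.

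Of the other receptor chains and kinases, 7 were on the array and 6 tested, of which 2 rose and none fell. Of all genes 14.4% were called higher and 12.8% lower. The median change of the list was 0.19 against 0.01 for all genes. Il10rb, a chain shared by the receptors for interleukin 10 and interferon lambda, rose by 0.48 (SE 0.116, adjusted p = 0.0157). Ifnlr1, the other chain of the interferon lambda receptor, was detected on 3 of 3 knockout arrays but no control. It met the detection filter through those arrays alone, so its call and its part in the count are a description and not support. Its rise was at least 1.25-fold (adjusted p = 0.0164). For a probe below background throughout a group, the bound sets the bright group's mean against that of the dim group with each dim array raised to its lowest detected signal. Ifngr2, the partner of Ifngr1, was at 8.38 ± 0.133 (SD, n = 3) against 8.96 ± 0.471 (SD, n = 4). Its groups did not overlap, with the knockout arrays lower, and it did not pass (log2 -0.58, adjusted p = 0.0918). The kinases Jak1, Jak2 and Tyk2 differed by -0.06, 0.44 and -0.22 (adjusted p = 0.802, 0.201 and 0.212). Leaving out knockout array 1 left 0 calls in this list, and leaving out knockout array 3 left 1. Without control array 4, with replicates as a block, or in a robust fit with a variance trend, 1 gene of the list was called lower.

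The ISGF3 subunits rose. Stat2 read 6.91, 6.24 and 6.96 on knockout arrays and 4.56, 6.00, 4.65 and 5.21 on control arrays. All knockout arrays lay above all controls, with knockout array 2 and control array 2 nearest to each other. The change was 1.60 (SE 0.335, 95% interval 0.85 to 2.35, adjusted p = 0.00919), which placed Stat2 at rank 57 of 7547 by size of rise. Stat2 was detected on 3 of 3 knockout and 2 of 4 control arrays, and its size depends on how values near background are treated. An alternative added after the data were seen lifted low values to the lowest detected signal of their array, and the change was then 1.23 (adjusted p = 0.00633), a 2.34-fold difference. Leaving out the background correction gave 0.59, and the values the authors had processed gave 0.56, both past the threshold. The rank moved as well: 3.48% and 3.56% of genes rose more than Stat2 in these, against 0.742% with the background correction.

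Irf9, the DNA-binding subunit of ISGF3, read 9.88, 9.33 and 9.85 on knockout arrays and 8.56, 8.81, 9.24 and 8.97 on control arrays, with no overlap between groups. It rose 1.73-fold (log2 0.79, SE 0.193, 95% interval 0.36 to 1.23, adjusted p = 0.0162). Its call was lost without knockout array 1 (0.70, adjusted p = 0.0660) and without knockout array 3 (0.71, adjusted p = 0.0681). A dimmer Irf9 probe read 6.87, 6.11 and 7.10 against 6.44, 6.64, 6.27 and 6.32, with knockout array 2 below every control, and did not pass (0.27, adjusted p over all kept probes = 0.391). With the mean of both probes the change was 0.53 and the call was lost (adjusted p = 0.0560). Knockout array 2 was the lowest of the knockout arrays for Ifngr1, Stat2, Irf9, Irf1, Irf2 and Irf7, and the highest for Ifnar2.

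Among the other STAT factors, 5 were on the array and 3 tested, of which 2 rose and none fell. Over all genes 14.4% were called higher and 12.8% lower. Stat3, which carries signals of interleukin 6 and related cytokines, rose by 0.75 (SE 0.124, adjusted p = 0.00360). Stat5a, which acts downstream of the erythropoietin receptor, rose by 0.46 (SE 0.148, adjusted p = 0.0448) with overlapping groups. In the fit with brightness as a covariate neither was called, and without knockout array 1 or 3, or control array 1, 2 or 4, 1 of the list rose. Stat6 differed by 0.0020 (95% interval -0.26 to 0.27, adjusted p = 0.991).

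The interferon regulatory factors differed widely among themselves. Irf7 had the largest rise of the members. Its only probe read 9.94, 9.36 and 9.69 on knockout arrays and 6.96, 7.20, 7.75 and 7.09 on control arrays, so every knockout array stood far above the highest control. It rose 5.32-fold (log2 2.41, SE 0.208, 95% interval 1.94 to 2.88, adjusted p = 0.000160), rank 20 of 7547 by size of rise. Before normalization its signal was 1390, 924 and 1163 on knockout and 202 to 265 on control arrays. When array brightness entered the fit as a covariate, Irf7 alone of the members was called (2.82, adjusted p = 0.00632).

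Irf1 has 5 probes on the array. The brightest read 10.52, 10.30 and 10.38 on knockout arrays and 8.37, 8.13, 9.25 and 8.55 on control arrays, and rose 3.54-fold (log2 1.82, SE 0.234, 95% interval 1.30 to 2.35, adjusted p = 0.00128), rank 43 of 7547. The groups stood apart, with control array 3 nearest to the double knockout. The next brightest rose by a like amount, from 6.90, 6.45, 7.55 and 6.72 to 8.77, 8.81 and 8.89 (1.92, adjusted p over all kept probes = 0.00107). Both of the next probes were close to background, at 4.79 to 6.23 on control and 5.50 to 6.16 on knockout arrays, and differed by 0.38 and 0.44 without passing (adjusted p over all kept probes = 0.226 and 0.317). The last was not detected on any array. All 5 are annotated to the same transcript, and the position each binds was not analysed here. With the mean of the 4 kept probes in place of the brightest, the Irf1 change was 1.14 (adjusted p = 0.00234), and 1.70% of genes rose more. The fit with brightness as a covariate gave 2.12, which did not pass (adjusted p = 0.0608).

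Irf2 read 11.19, 10.75 and 10.81 on knockout arrays and 10.25, 10.25, 10.27 and 10.60 on control arrays. The groups did not overlap, and it rose 1.49-fold (log2 0.57, SE 0.153, 95% interval 0.23 to 0.92, adjusted p = 0.0233). Control array 4, the highest of the controls, was also the brightest control array overall. The fit with brightness as a covariate gave 0.29, which did not pass (adjusted p = 0.610). The call was also lost without knockout array 1 (0.43, adjusted p = 0.0905), knockout array 3 (0.63, adjusted p = 0.0537), control array 2 (0.54, adjusted p = 0.0513) or control array 3 (0.55, adjusted p = 0.0505).

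Irf3 read 11.80, 11.92 and 11.93 on knockout arrays and 11.82, 11.88, 11.96 and 12.03 on control arrays. The groups overlapped, and the difference was -0.04 (SE 0.113, 95% interval -0.30 to 0.21, adjusted p = 0.800). Its dimmer probes differed by 0.04 and 0.05, with 95% intervals of -0.25 to 0.33 and -0.31 to 0.42. The sign of the Irf3 difference turned with the scaling, to 0.34 over all probes and -0.33 over detected probes, or -0.18 relative to the median gene in both, and it passed under neither.

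**Figure D2:**
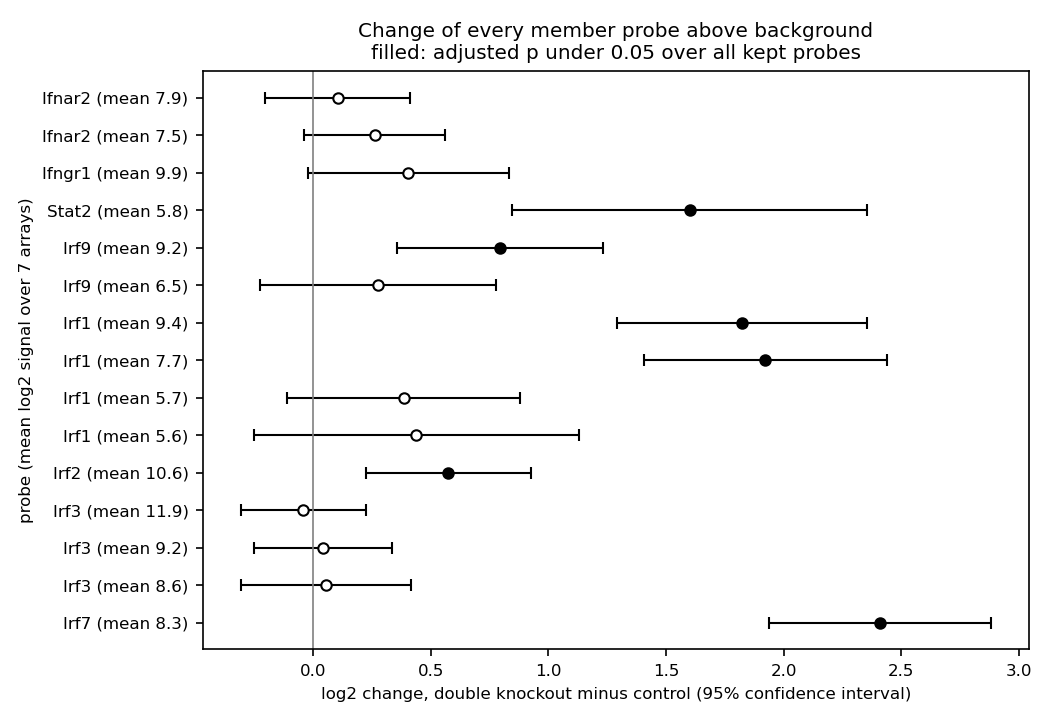
Log2 change of the 15 member probes that passed the detection filter, with 95% confidence intervals from the limma fit over all kept probes, ordered by gene and mean signal. Filled points (6 of 15) passed the threshold; the dim probes of Irf9 and Irf1 lie at 0.27 to 0.44 while the brightest probes of these genes lie at 0.79 and 1.82.

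At the level of probes, 15 of 18 passed the filter and 6 of these 15 were called, all higher, where 26.3% of the 10723 kept probes were called in either direction. Those not called were the pairs of kept probes of Ifnar2, the Ifngr1 probe, the dimmer Irf9 probe, both dim Irf1 probes and the 3 Irf3 probes. For Irf3 the probes gave like values over a wide range of signal, whereas for Irf9 the change was larger on the brighter probe. For Irf1 the brightest probe and the next brightest changed by 1.82 and 1.92, and both probes near background by 0.38 and 0.44.

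Differences within an array do not move when a whole array shifts, and they show only whether 2 genes changed unequally. Irf7 minus Irf3 was -1.86, -2.56 and -2.24 on knockout arrays and -4.86, -4.68, -4.21 and -4.95 on control arrays. The shift was 2.45 (exact two-sided permutation p = 0.0286, the smallest the design allows). The pairs were chosen with earlier results of these data known, so their p-values are a description and not support. No adjusted p is given, since the third difference below was left without a test. Irf1 minus Irf2 was -0.68, -0.45 and -0.43 against -1.89, -2.12, -1.02 and -2.06. The groups stood apart and the shift was 1.25, but it did not pass (exact permutation p = 0.0571). With the mean of each gene's kept probes it was 0.57 (exact permutation p = 0.114). The mean of Stat2 and Irf9 minus that of Ifnar1 and Ifnar2 was 2.23, 1.49 and 2.26 against 0.47, 1.21, 0.75 and 1.02, a shift of 1.13. It is given as a description with no test, since Ifnar1 was below background on every array and Stat2 was detected on 2 of 4 control arrays. The shift was 1.09 with Ifnar2 alone, computed after the data were seen, 0.96 with the mean of each gene's kept probes, 0.59 without background correction and 0.56 in the values the authors had processed.

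**Figure D3:**
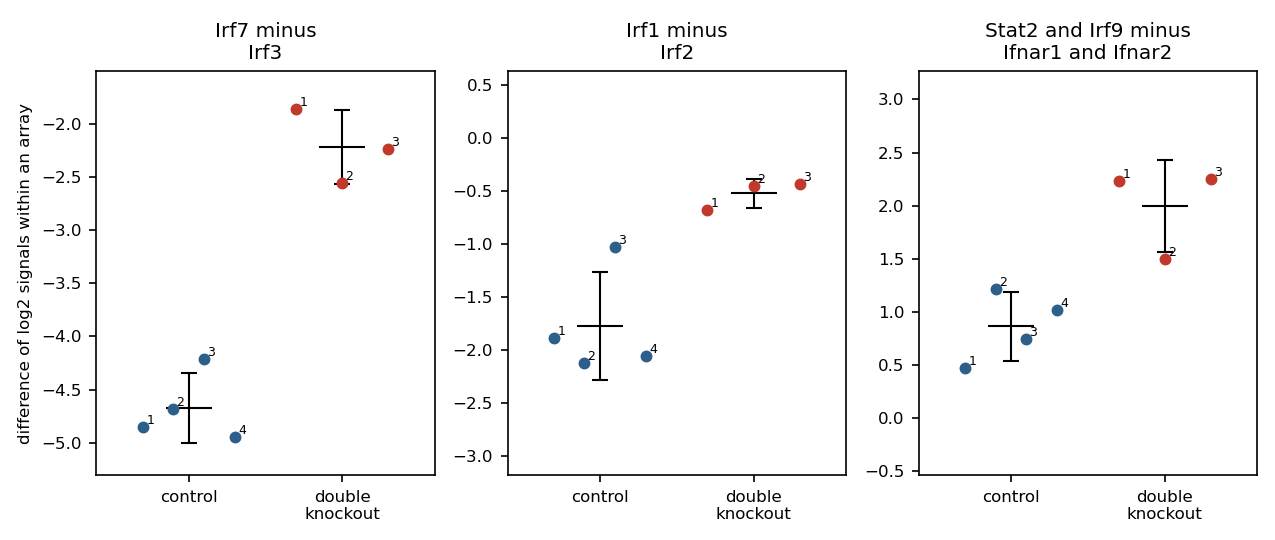
Difference of log2 signals within each array for 3 pairs, 1 point per array (number: replicate), with mean and SD, controls in blue (n = 4) and double knockout in red (n = 3); only the shift between groups is to be read, since levels of different probes are not comparable. Irf7 minus Irf3 shifts by 2.45, Irf1 minus Irf2 by 1.25, and the ISGF3 subunits minus the type I receptor subunits by 1.13. In the last pair Ifnar1 was below background on every array, and the shift was 0.59 without background correction.

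Of the remaining IRF factors and the IRF2 binding proteins, 5 were on the array and 2 tested. Irf2bpl rose by 0.68 (SE 0.215, adjusted p = 0.0436), with 1 of 4 control arrays detected, and Irf2bp1 differed by 0.09 (adjusted p = 0.600). Irf2bpl would have met the detection filter through its knockout arrays alone, so its call is a description and not support. Leaving out any 1 array other than control array 1 left 0 calls in this list. Irf4 and Irf5, factors of lymphoid and myeloid cells, were not detected on any array, and Irf8, a factor of monocytes and dendritic cells, was detected on 1 control array only.

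RefSeq promoter windows (build GRCm38.p6, 250 bases before to 50 after each start) were found for all 9 members, in 11 windows. They were searched on both strands for the ISRE core, a pair of GAAA tetramers with any 2 bases between them, and for the GAS motif TTCNNNGAA. The ISRE core is in 3.44% of all 32851 windows and the GAS motif in 8.30%. The ISRE core was in the windows of Stat2 and Irf2, and the GAS motif in those of Irf1, Irf2, Ifnar1 and Ifnar2, with no overlap between motifs. The windows of the members with the largest rises and of Irf2, which holds both motifs, are printed 5′ to 3′, with motif matches in capitals. They are Irf7 at chr7:141266375-141266674 (minus strand), Irf1 at chr11:53769764-53770063 (plus strand), Stat2 at chr10:128270248-128270547 (plus strand) and Irf2 at chr8:46739495-46739794 (plus strand).
Irf7: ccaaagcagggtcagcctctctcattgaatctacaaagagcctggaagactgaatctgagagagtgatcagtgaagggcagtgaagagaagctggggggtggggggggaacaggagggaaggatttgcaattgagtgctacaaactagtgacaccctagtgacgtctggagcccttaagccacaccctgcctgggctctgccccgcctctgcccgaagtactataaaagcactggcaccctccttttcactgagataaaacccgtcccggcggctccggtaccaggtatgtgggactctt
Irf1: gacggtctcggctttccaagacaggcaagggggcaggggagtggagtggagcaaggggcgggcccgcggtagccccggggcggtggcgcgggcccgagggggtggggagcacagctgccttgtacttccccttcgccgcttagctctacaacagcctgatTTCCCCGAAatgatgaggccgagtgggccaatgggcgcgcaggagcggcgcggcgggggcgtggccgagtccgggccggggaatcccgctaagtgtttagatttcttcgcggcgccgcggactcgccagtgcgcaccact
Stat2: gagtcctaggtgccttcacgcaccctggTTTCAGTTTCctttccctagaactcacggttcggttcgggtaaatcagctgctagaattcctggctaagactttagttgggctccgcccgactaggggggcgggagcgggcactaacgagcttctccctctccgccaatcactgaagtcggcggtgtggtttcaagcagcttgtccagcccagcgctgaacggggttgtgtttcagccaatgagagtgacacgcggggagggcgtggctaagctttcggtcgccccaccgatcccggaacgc
Irf2: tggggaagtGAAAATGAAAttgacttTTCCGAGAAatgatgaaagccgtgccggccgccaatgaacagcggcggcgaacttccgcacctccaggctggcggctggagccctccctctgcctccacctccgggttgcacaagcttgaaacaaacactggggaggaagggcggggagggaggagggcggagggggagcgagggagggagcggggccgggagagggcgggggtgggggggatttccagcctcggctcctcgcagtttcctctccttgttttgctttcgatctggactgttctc
In the Irf1 window the GAS match spans positions -90 to -82 from the start. In the Stat2 window the ISRE core spans -222 to -213 and reads on the opposite strand. In the Irf2 window the ISRE core spans -241 to -232 and the GAS match -224 to -216. Neither set of letters is in the Irf7 window. A match describes the sequence only, and no binding was measured.

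The genes that act on these members or respond to them came from lists chosen with earlier results of these data known. Of 13 kinases and adaptors upstream of Irf3 and Irf7 on the array, 10 were tested, of which 3 rose and none fell. Over all genes 14.4% were called higher and 12.8% lower. The median change of the list was 0.14. Under scaling to detected probes 2 of the list rose and 1 fell, with a median of -0.03. Myd88, the adaptor of Toll-like receptors that engages Irf7, rose by 0.64 (SE 0.133, adjusted p = 0.00893). Tbk1, the kinase that phosphorylates Irf3 and Irf7, rose by 0.61 (SE 0.136, adjusted p = 0.0116). Ticam1, the adaptor of Tlr3, rose by 0.59 (SE 0.190, adjusted p = 0.0453) with 2 of 4 control arrays detected. Ticam1 would have met the detection filter through its knockout arrays alone, so its call is a description and not support. Ikbke, the relative of Tbk1, differed by 0.16 (adjusted p = 0.428) and Mavs, the mitochondrial adaptor of RNA sensors, by -0.17 (adjusted p = 0.337). Tlr3, Tlr4 and Tlr7 were not detected on any array. The list held 1 call without knockout array 3, and 2 without knockout array 1 or 2 or control array 3 or 4.

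Of 15 feedback and negative regulators, 12 were tested, of which 3 rose and 1 fell, with a median change of 0.07. Over all genes 14.4% were called higher and 12.8% lower. The balance of the list turned with the scaling: 9 were called higher and 0 lower over all probes, and 1 higher and 3 lower over detected probes. Usp18, which binds Ifnar2 and dampens its signal, rose 8.62-fold, from 9.17 ± 0.316 (SD, n = 4) to 12.28 ± 0.157 (SD, n = 3). The phosphatase Ptpn11 rose by 0.45 (adjusted p = 0.0184) and the SUMO ligase Pias2 by 0.62 (adjusted p = 0.0281, 1 of 4 control arrays detected). Pias2 would have met the detection filter through its knockout arrays alone, so its call is a description and not support. Ptpn1, a phosphatase that acts on Jak2 and Tyk2, fell in the double knockout (log2 -0.54, SE 0.150, adjusted p = 0.0267). The Ptpn1 call was lost without knockout array 3, with replicates as a block, with brightness as a covariate and under scaling to all probes. Socs1, the inhibitor of JAK kinases induced by interferon, was at 5.06 ± 0.162 (SD, n = 3) against 5.32 ± 0.147 (SD, n = 4) and did not pass (adjusted p = 0.182), while Socs3 was not detected on any array. The list held 1 call higher without knockout array 2 or 3, and 2 without knockout array 1 or control array 2 or 3.

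Of 36 interferon-stimulated genes on the array, 31 were tested, of which 26 rose and none fell, with a median change of 1.52. Of all genes 14.4% were called higher. Oas2, Ifit3 and Oas3 were detected on no control array, and Mx2, Oas1a and Ifih1 on 1. They met the detection filter through the knockout arrays, so the count is a description and not support. Without the filter 24 rose (median 1.22), and with detection at p under 0.01 on all arrays 19 rose (median 1.40). The largest rises were those of Oasl2 at 4.25, Isg15 at 3.55 and Rsad2 at 3.52, beside Oas2, which was below background in controls and at least 13.8-fold higher in the double knockout. The members not called were Psmb8, Isg20, Psmb9, Ifi27 and Zbp1, at -0.26 to 0.49. In the fit with brightness as a covariate their median was 1.43, with 13 that rose and none that fell.

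**Figure D4:**
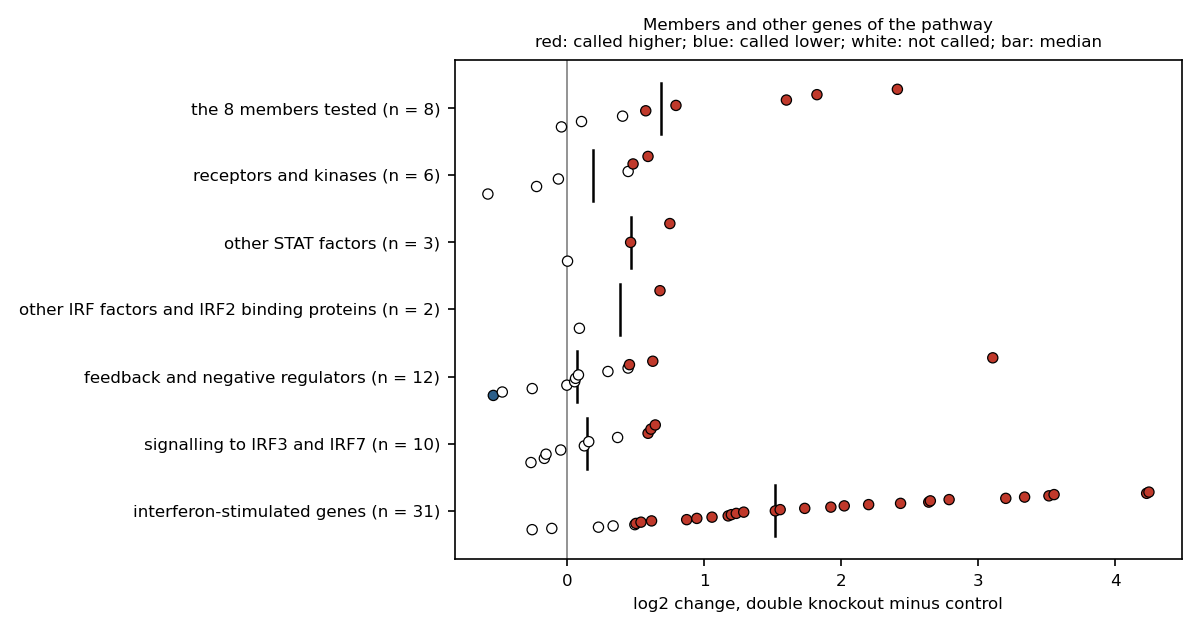
Log2 change of each tested gene by list, with the median as a bar; red points were called higher, blue lower and white not called in the limma fit over all genes. The 31 interferon-stimulated genes have a median of 1.52, and the other 5 lists outside the members have medians of 0.07 to 0.46.

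For the 4 called members with the smallest p, the genes with the most similar profile were found as those with the smallest root mean square distance of log2 values, taken as differences from the control mean over the 7 arrays. Nearest to Irf7 were Dhx58, a regulator of RNA sensing, at a distance of 0.235, the poly(ADP-ribose) polymerase Parp14 at 0.237 and the interferon-inducible GTPase Ifi47 at 0.294. Nearest to Irf1 were Uba7, the enzyme that activates Isg15 for conjugation, at 0.219, Ifi47 at 0.249 and Tnfaip8 at 0.258. Nearest to Stat2 were Arf3 at 0.289, Gosr1 at 0.353 and Smagp at 0.366. Nearest to Irf9 were the leucyl-tRNA synthetase Lars at 0.0556, the GTPase Rab18 at 0.0711 and the mitochondrial isoleucyl-tRNA synthetase Iars2 at 0.133. The distances describe these 7 arrays and are smaller for genes with smaller changes.

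Markers of other blood cells moved with the groups in part, and in sorted bulk samples fewer cells of a type and less RNA per cell cannot be told apart. Of B-lineage markers 5 of 7 on the array were tested and all 5 fell. Over all genes 12.8% were called lower and 14.4% higher. Cd79a was detected on no knockout array, and Vpreb3 and Ebf1 on 1. They met the detection filter through the control arrays, so the count is a description and not support. The summed linear signal of the 5 was 186 to 294 on knockout and 839 to 1823 on control arrays. Pax5 and Ms4a1 were not detected. Of neutrophil and monocyte markers 8 of 11 were tested, of which Mpo, Ctsg and S100a8 rose and Lyz2 fell, with a summed signal of 1783 to 3548 against 921 to 1922, and Cd14 and Ngp were not detected. Of plasmacytoid dendritic cell markers, a cell type known for high Irf7, 5 of 8 were tested. Bst2, which is also interferon-stimulated, rose and Spib fell. Spib was detected on no knockout array and met the detection filter through control arrays, so its call is a description and not support. The 4 other than Bst2 summed to 1363 to 1508 on knockout and 1348 to 1743 on control arrays. Most of this sum is Tcf4, at a mean log2 signal of 10.35 on knockout and 10.37 on control arrays. Tcf4 differed by -0.0149 (adjusted p = 0.940), so the sum says little about the dimmer markers. Besides Spib, Ly6d and Siglech differed by -0.975 and -0.489, with overlapping groups and without passing (adjusted p = 0.0924 and 0.150). Ccr9, Cd209d and Klk1 were not detected. Of T and NK cell markers 2 of 9 were tested and neither was called (369 to 902 against 259 to 656), and 6 (Cd2, Cd3e, Cd3g, Cd8a, Gzma and Ncr1) were not detected. Of mast cell markers 2 of 7 were tested and Cpa3 rose (120 to 161 against 73.1 to 155), while Cma1, Gzmb, Mcpt8, Ms4a2 and Prss34 were not detected. The part of these cells in the changes of the members was not tested.

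**Figure D5:**
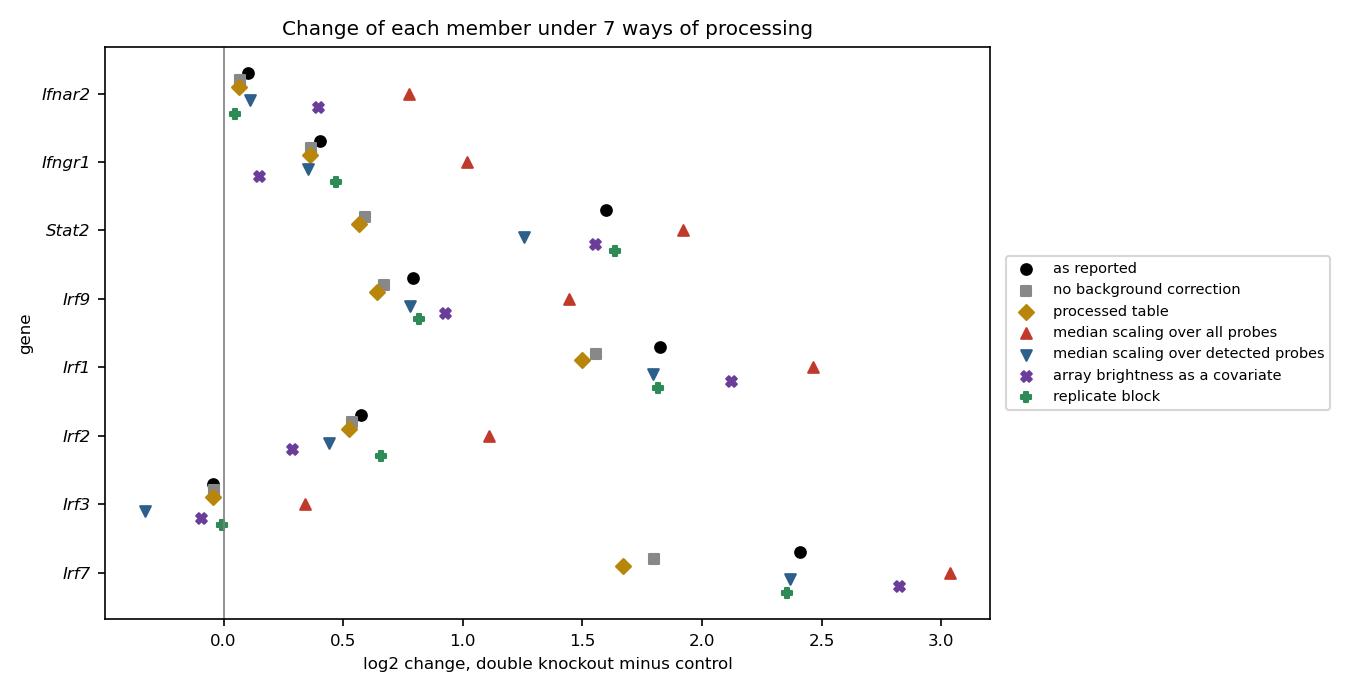
Log2 change of the 8 members tested under 7 ways of processing, 1 marker per way. Irf7 stays between 1.67 and 3.03 and Irf1, by its brightest probe, between 1.50 and 2.46, Stat2 falls to 0.56 in the processed table, and Irf3 lies on both sides of 0.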

How the data were processed

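The study measured RNA of sorted mouse progenitors on Illumina MouseRef-8 v2.0 arrays, hybridised in a single colour, 3 of the double knockout and 4 of controls. Per the labels' protocols, RNA was extracted on columns, cleared of DNA and amplified to labelled cRNA, and the submitters' processing notes name GenomeStudio. The authors deposited probe signals as intensity on a linear scale, not background-subtracted or normalized, with a detection p-value for each probe. A second table deposited by the authors holds processed log2 values. Set against quantile-normalized log2 signals it had a median correlation per kept probe of 0.999964 after centring, with the same direction and a slope of 0.958, and column medians of 0.00164 to 0.00513. The baseline of its centring is unknown.

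From the signals, neqc in limma 3.58.1 (R 4.3.3) estimated the background from detection p-values, added an offset of 16, quantile-normalized the 7 arrays and took log2. Probes were kept at detection p under 0.05 on at least 3 arrays, which left 10723, of which 10091 had a gene symbol. Of all probes 23978 had 1 symbol, 0 several and 1719 none, and 23962 gene IDs were found in the RefSeq table of GRCm38.p6 with 0 symbols changed. For each of 7547 genes the brightest kept probe stood for the gene. Groups were compared with lmFit and eBayes, two-sided, and the procedure was tested on simulated data. The number of arrays limits the precision. No file header names a chip. Processing alternatives are given in the closing section.

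The members, lists and tests were chosen with earlier results of these data known. Named genes were the members, the targeted genes, up to 4 changed genes of each list with the largest change (or the 2 with the smallest p), and the 3 nearest profiles of 4 members, without clone names. Other genes (the kinases, Stat6, Irf2bp1, Ifngr2, Ikbke, Mavs, Socs1 and those not called or not detected) were named after their values were seen.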

Additional observations from a re-analysis of the deposited data

Results flagged for a closer look

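Among 18 sets of 4 control values examined, 1 held an array far from the others: the Irf2 signal on control array 4 was 10.60 against 10.25 to 10.27 on the other control arrays. Control array 4 had a mean signal of 615 over all probes, the highest of the controls, where the other controls had 443 to 528. Without this array the Irf2 change was 0.66 (adjusted p = 0.0174). Such a gap arises by chance in about 5% of sets of this size. Sets of 3 knockout arrays are too small for this rule and were not examined.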

How the results depend on the processing

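Irf7 passed the threshold in all 17 alternatives (1.67 to 3.03), Irf1 in 16 of 17, Irf9 in 13 of 17 and Irf2 in 12 of 17, and no called member changed sign. Stat2, which the stricter detection filter removed, was called in the other alternatives except with brightness as a covariate, also with values lifted to the detection floor. With array brightness as a covariate 52 genes changed and 1 member rose, and Stat2 and Irf9 were at 1.55 and 0.93 without passing. Scaling to the median of all probes called 3888 genes and 7 members. With the replicate block 1355 genes changed and all 5 members kept their calls, and same-numbered arrays did not deviate together (correlations of -0.169, -0.0160 and 0.0277), so the numbers are not taken as pairs. Leaving out each array in turn gave 1116 to 1923 changed genes, 3 to 6 members that rose, a shift of 2.27 to 2.62 for Irf7 minus Irf3 and of 1.0 to 1.38 for Stat2 and Irf9 minus Ifnar1 and Ifnar2. With 6 arrays the smallest exact p is 0.0667 or 0.1, so no exact p is given for these shifts. The ISGF3 shift was 0.96 with the mean of kept probes, 0.59 without background correction and 0.56 in the processed values. Stat2 was not tested where detection was required on all arrays, which left 4 members that rose. Where calls were lost, the cause was not tested. Array chip as a block was not run, since no header names a chip. Signal near background limits what can be said of Ifnar1, Stat2 and the dim probes of Irf1.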

Other observations

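Of 17 interferon genes on the array, 14 were not detected on any array, among them Ifnb1 and Ifng, the genes of interferon beta and gamma, so their levels were not measurable here. Ifna6 was the only interferon gene detected on all arrays, and it was lower in the double knockout, at 6.23 ± 0.0523 (SD, n = 3) against 6.82 ± 0.165 (SD, n = 4; log2 -0.59, limma adjusted p = 0.0101). Interferon alpha genes are near-identical copies, and what this probe binds is uncertain.

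Irf8 was at 4.57 ± 0.0756 (SD, n = 3) on knockout arrays, none of which detected it, and 5.12 ± 0.241 (SD, n = 4) on control arrays. Mx1, an antiviral GTPase, was detected on 1 knockout array and no control array, and the RNA sensor Ddx58 on 2 knockout arrays and no control array.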
